A study of Bos taurus with 90 samples.

Results

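The pair of microRNAs (miRNAs) described here is miR-210 and miR-147, 2 of the 388 miRNAs that the files of the 5 dairy cow tissues list, and both were listed in all 5 tissues, as were 289 miRNAs in all. They were selected on their measured values, namely their high level in rumen and the way they varied together there, so the rumen level and the co-variation within rumen are given as description and without a test. Small RNA came from the rumen, the duodenum, the jejunum, the liver and the mammary gland of lactating Chinese Holstein cows kept on a ration whose forage was alfalfa hay, rice straw or corn stover. The rumen, duodenum and jejunum samples are labelled as epithelium, and the liver and mammary gland samples by the organ alone. All cows were in mid-lactation, the labels give no genotype or drug, and each cow gave all 5 tissues after slaughter. There were 6 samples for each tissue and diet and 90 in total. Values are CPM, the reads of a miRNA scaled to a fixed total of reads that mapped to any annotated bovine miRNA in that library.

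miR-210 is the miRNA most widely linked to low oxygen. Its transcription is driven by hypoxia-inducible factors, and it represses components of mitochondrial respiration such as the iron-sulphur scaffold protein ISCU. miR-147 is best known from macrophages, where signalling through Toll-like receptors and NF-kB induces it, and in mammals its precursor lies in the transcript of C15orf48, a gene related to the respiratory chain subunit NDUFA4. The seeds of the human counterparts of both miRNAs are closely related, and both have been reported to act on NDUFA4. The rumen is a fermentation chamber with an oxygen-poor content, lined by a stratified squamous epithelium that absorbs short-chain fatty acids. In the RefSeq annotation of ARS-UCD2.0, MIR210 lies between PHRF1 and RASSF7, inside the span of the protein-coding gene LOC132344225. MIR147 lies inside C10H15orf48, the bovine counterpart of C15orf48, next to SPATA5L1. The CPM files name no genome build, so coordinates are not given.

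The libraries held between 937556 and 15621501 mapped miRNA reads, so that 3 reads were worth between 0.192 and 3.20 CPM. Every rumen library gave at least 1397 reads of miR-210 and 1381 reads of miR-147, and the counting error of the rumen values is therefore small beside the spread between samples. In mammary gland the lowest libraries gave 26 reads of miR-210 and 3 reads of miR-147. The tissue labels were checked against miRNAs with known tissue preference. miR-205, a marker of stratified squamous epithelium, stood at 33692 ± 7808 CPM (SD, n = 18) in rumen and at 1.91 ± 1.66 CPM in duodenum, and jejunum did not list it. Summed with the squamous marker miR-31, it averaged 2961 to 4670 CPM over the mammary gland diets and 576 to 897 CPM over the liver diets. In rumen that sum averaged 35444 to 41727 CPM over the diets. The squamous marker miR-203 was listed in no tissue. miR-192, a marker of intestinal and liver epithelium, stood at 2907 CPM in rumen, 256562 CPM in duodenum, 193633 CPM in jejunum and 137788 CPM in liver. The hepatocyte marker miR-122 stood at 11021 CPM in liver and 7.88 CPM in mammary gland, and the other 3 tissues did not list it. The smooth muscle miRNA miR-143 stood at 174372 CPM in the rumen samples, which are labelled epithelium, and between 126623 and 210856 CPM in the other 4 tissues. In such bulk tissue, fewer cells of a type and less RNA per cell cannot be told apart.

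miR-210 was high in rumen and low everywhere else. Its 18 rumen samples ran from 446.7 through a median of 718 to 1005 CPM, with a mean of 736 ± 160 CPM (SD, n = 18). In mammary gland the values ran from 25.6 through a median of 98.1 to 155 CPM, and in liver from 53.2 through 83.6 to 107 CPM. In duodenum they ran from 27.8 through 41.9 to 59.0 CPM, and in jejunum from 24.2 through 36.1 to 74.9 CPM. No rumen sample overlapped with any sample of another tissue. The order of the means was rumen, mammary gland (93.3 ± 32.1 CPM), liver (77.8 ± 16.0 CPM), duodenum (41.6 ± 9.04 CPM) and jejunum (41.3 ± 13.9 CPM). Mammary gland and liver differed by 15.4 CPM, less than the SD of mammary gland, and duodenum and jejunum by 0.256 CPM, less than the SD of either. Liver and duodenum overlapped in range, but 15 of the 18 liver samples lay above every duodenum sample. The rumen mean was 7.89 times that of mammary gland, 9.46 times that of liver, 17.7 times that of duodenum and 17.8 times that of jejunum. These ratios depended on the scaling of the libraries. With upper-quartile scaling they were 6.41, 5.78, 15.6 and 15.5 in the same order, so that liver came next to rumen. With trimmed-mean scaling they were 6.29, 6.60, 13.9 and 13.7.

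miR-147 reached almost the same level as miR-210 in rumen and had a different order elsewhere. Its rumen samples ran from 489.7 through a median of 662 to 956 CPM, with a mean of 688 ± 131 CPM (SD, n = 18). The jejunum samples ran from 28.4 through 50.6 to 69.6 CPM and the duodenum samples from 27.2 through 38.7 to 56.3 CPM. The mammary gland samples ran from 1.96 through 16.5 to 39.5 CPM, and the liver samples from 4.42 through 8.59 to 52.6 CPM. Again every rumen sample lay above every sample of the other tissues, whereas each of the other neighbouring pairs in the order jejunum, duodenum, mammary gland and liver overlapped. The means of jejunum (48.5 ± 11.7 CPM) and duodenum (40.5 ± 8.56 CPM), and those of mammary gland (17.2 ± 10.9 CPM) and liver (11.7 ± 10.9 CPM), were closer than the larger SD of each pair. The rumen mean was 14.2 times that of jejunum, 16.98 times that of duodenum, 40.0 times that of mammary gland and 58.8 times that of liver. Of the 289 miRNAs listed in all 5 tissues, 14, or 4.84%, lay in every rumen sample above every sample of the other 4 tissues, and both members are among those 14 because they were chosen for a high rumen level.

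**Figure D1:**
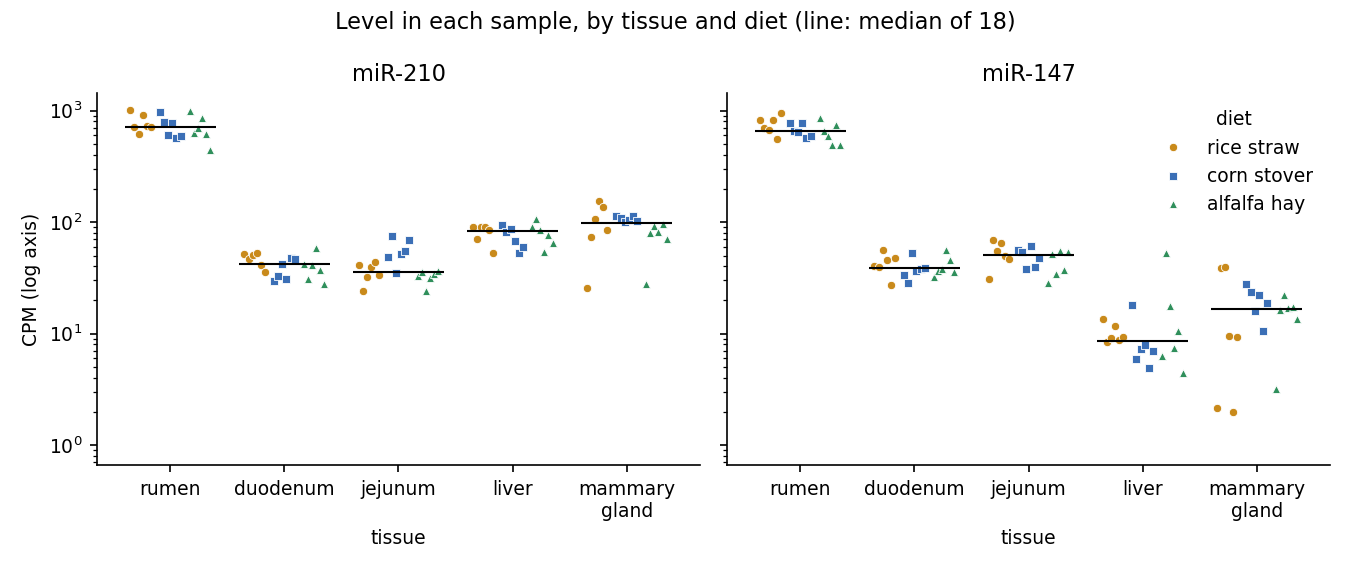
Level of miR-210 and miR-147 in CPM, on a log axis, in each of the 90 samples, by tissue on the horizontal axis and diet by colour and symbol, with a line at the median of the 18 samples of a tissue. Both miRNAs stand between 446.7 and 1005 CPM in rumen and nowhere above 155 CPM in the other tissues, and miR-147 falls as low as 1.96 CPM in mammary gland.

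By rank the pair took neighbouring places in rumen. miR-210 was number 80 and miR-147 number 82 of the 340 miRNAs listed there, ordered by mean CPM. In duodenum they ranked 170 and 173 of 338 and in jejunum 173 and 163 of 337. In liver miR-210 ranked 149 and miR-147 ranked 215 of 330, and in mammary gland they ranked 143 and 210 of 328. The 2 miRNAs thus had close ranks in the 3 gut tissues and separate ranks in liver and mammary gland.

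The other miRNAs linked to hypoxia or inflammation did not share one tissue order. Of the 19 hypoxia-linked mature miRNAs listed in all 5 tissues, 10 had their highest mean in rumen, or 52.6%. Besides miR-210 these were miR-199a-5p, miR-23a, miR-23b-3p, miR-24, miR-24-3p, miR-26a, miR-27a-3p, miR-27a-5p and miR-27b, most of which come from the clusters of miR-23, miR-27 and miR-24. Of the 10 inflammation-linked ones, 3, or 30.0%, were highest in rumen, namely miR-147 and both arms of miR-21. Over all 289 miRNAs 105, or 36.3%, had their highest mean in rumen. These counts include the members, which the selection placed there, and no test was made of them.

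Over the 15 means of a tissue and diet, the miRNAs whose pattern was most like that of miR-210 were miR-3431 (Pearson r = 0.97), miR-149-5p (0.96), miR-452 (0.95), miR-320a (0.93) and let-7e (0.93), on the log2(CPM + 1) scale and out of 261 miRNAs compared. Those most like miR-147 were miR-378c (0.97), miR-19a (0.96), miR-25 (0.96), miR-27a-3p (0.95) and miR-378 (0.95). The sets had no miRNA in common. miR-3431 stood at 126 CPM in rumen, 43.7 CPM in liver, 40.5 CPM in mammary gland, 22.2 CPM in duodenum and 21.7 CPM in jejunum, which is the tissue order of miR-210 except that liver and mammary gland change places. miR-378c, of the miR-378 family known from metabolic regulation, stood at 2116 CPM in rumen, 362 CPM in duodenum, 350.3 CPM in jejunum, 96.2 CPM in mammary gland and 61.2 CPM in liver. Near-identical members of the miR-378 family can share reads in the alignment used, so their separate values are uncertain. Between themselves, miR-210 and miR-147 had r = 0.76 over the 15 means, which placed miR-147 at number 27 for miR-210 and miR-210 at number 43 for miR-147. The points share tissues and cows, and the correlations are given as description.

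In rumen the forage made no difference to either miRNA that passed the test. The 6 samples of a diet ran for miR-210 from 617 through a median of 719.98 to 1005 CPM under rice straw, from 569 through 688 to 975 CPM under corn stover and from 446.7 through 665 to 996 CPM under alfalfa hay. For miR-147 they ran from 552 through 767 to 956 CPM under rice straw, from 570.5 through 646 to 776 CPM under corn stover and from 489.7 through 627 to 859.8 CPM under alfalfa hay. The 3 diets overlapped over most of their range in both miRNAs. The means of miR-210 were 782 ± 145, 718 ± 158 and 709 ± 194 CPM, and those of miR-147 were 757 ± 144, 667 ± 88.1 and 641 ± 145 CPM, in the same order (SD, n = 6 each).

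An F test over the 3 diets with limma on log2(CPM + 1), adjusted over all 340 rumen miRNAs, gave an adjusted p of 0.835 for miR-210 and 0.605 for miR-147, and it called 5 of the 340 miRNAs, or 1.47%. The widest of the pairwise differences was that of miR-147 between alfalfa hay and rice straw. It was -0.25 on the log2 scale (SE 0.17, 95% interval -0.60 to 0.10), with an adjusted p of 0.369 by limma, and this contrast called 2.65% of all rumen miRNAs. The same contrast gave miR-210 a difference of -0.17 (SE 0.19, interval -0.57 to 0.23, adjusted p = 0.629). The median of all 340 miRNAs in that contrast was itself -0.17, so that miR-210 differed from it by 0.00 and miR-147 by -0.08. Between alfalfa hay and corn stover the differences were -0.04 for miR-210 (interval -0.44 to 0.37) and -0.08 for miR-147 (interval -0.43 to 0.27), where the median of all miRNAs was -0.11. Between corn stover and rice straw they were -0.13 for miR-210 (interval -0.53 to 0.27) and -0.17 for miR-147 (interval -0.52 to 0.18). Each of these last 2 contrasts called 0 of 340 rumen miRNAs (0%) by limma, with 56 and 12 miRNAs at an unadjusted p under 0.05, and edgeR on the recovered reads called 3 and 0. The intervals, from 6 samples a diet, leave room for differences of up to 0.60 on the log2 scale.

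**Figure D2:**
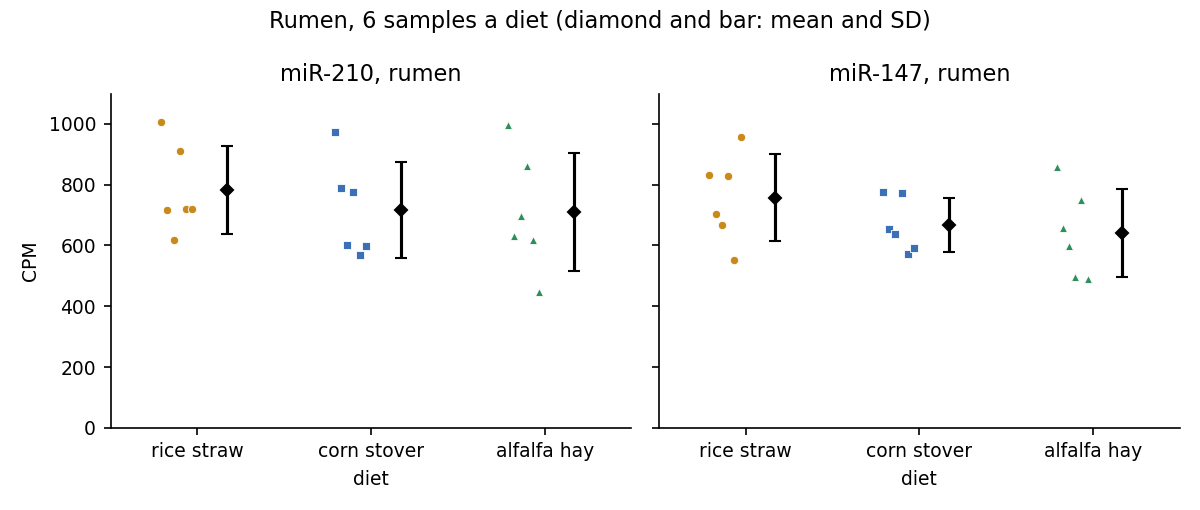
Rumen level of miR-210 and miR-147 in CPM in each sample by diet, with the mean and SD of 6 samples as a diamond and bar. The diets overlap in both miRNAs, and the means lie between 709 and 782 CPM for miR-210 and between 641 and 757 CPM for miR-147.

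The distance between rumen and the other tissues was also compared between diets, in 1 fit of all 90 samples and the 289 shared miRNAs. The rumen level of miR-210 lay above the mean of the other 4 tissues by 3.72, 3.46 and 3.73 on the log2 scale under rice straw, corn stover and alfalfa hay (SE 0.19 each). For miR-147 the distances were 5.04, 4.78 and 4.73 (SE 0.29 each). These distances rest on the values that chose the members. Whether they differed between diets was tested, and limma gave an adjusted p of 0.741 for miR-210 and 0.872 for miR-147, against 4.5% of the 289 miRNAs called.

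Within the 18 rumen samples the pair was high and low together in most but not all samples. On log2(CPM + 1) the Pearson r was 0.57 and the Spearman rho 0.59. The members were chosen with this relation known, so no p is given. Taken as deviations from the diet means, r was 0.54. The values were 0.44 within rice straw, 0.88 within corn stover and 0.47 within alfalfa hay, each over 6 samples. The alfalfa hay sample with 447 CPM of miR-210 was also the lowest of all for miR-147, at 490 CPM. The alfalfa hay sample numbered 4 went against the relation, with 862 CPM of miR-210 and 496 CPM of miR-147, and without it r was 0.73. Without the 2 samples farthest from the median of miR-210, r was 0.45.

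The sample numbers 1 to 6 in the labels recur in each diet. The sample numbered 1 had the highest miR-210 of its diet in rumen under all 3 diets, at 1005, 975 and 996 CPM. It had the highest miR-147 under corn stover (776 CPM) and alfalfa hay (859.8 CPM), while under rice straw sample 6 was highest (956 CPM). When both the diet means and the means of the sample numbers were removed, r fell to 0.30 and rho to 0.18. The labels do not say what the number stands for, and its part in the co-variation was not tested. Depth moved little with either miRNA in rumen, with r = 0.12 between miR-210 and the log2 of the mapped reads and r = -0.08 for miR-147.

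**Figure D3:**
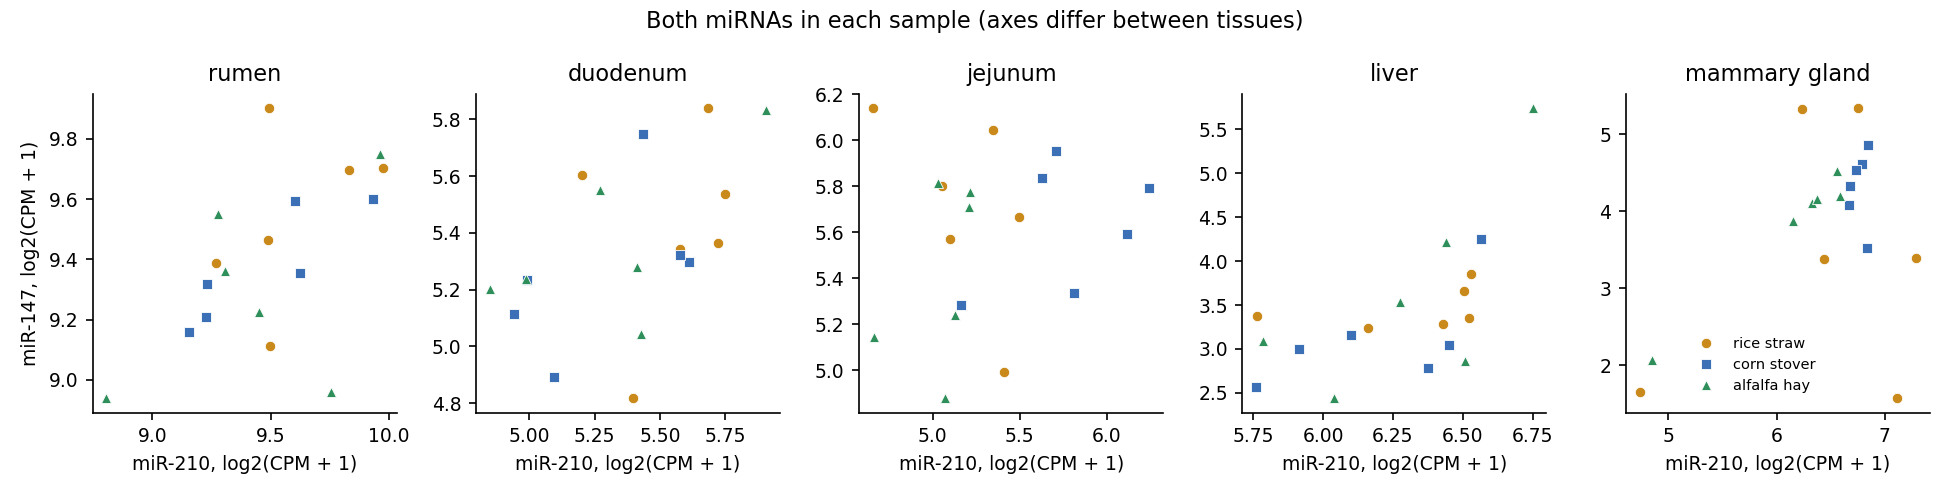
miR-147 against miR-210 in each sample, both as log2(CPM + 1), in 1 panel a tissue, with diets by colour and symbol and axes that differ between panels. The rumen points lie higher together (r = 0.57), the jejunum points show little relation (r = 0.12), and in mammary gland 2 samples lie far below the others in miR-210.

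The choice of the pair used the levels of the other 4 tissues, as the contrast to rumen, but named co-variation within rumen alone. In these 4 tissues the co-variation was tested with 100000 permutations each, two-sided, and adjusted over the 4 tests. The samples tested were thus not wholly unused in the choice. In liver, r was 0.60 (p = 0.00575, adjusted p = 0.0230) and rho 0.61 (adjusted p = 0.0187) by permutation. The liver relation leaned on single samples, since without the alfalfa hay sample numbered 2 (107 CPM of miR-210 and 52.6 CPM of miR-147) r was 0.51 with an adjusted permutation p of 0.0607, and without the corn stover sample numbered 5 (53.2 and 4.93 CPM) it was 0.56 with the same adjusted p. Without the 2 liver samples farthest from the median of miR-210, r was 0.61 (adjusted permutation p = 0.0406). As deviations from diet means, permuted within diets, r was 0.59 with an adjusted p of 0.0632, and rho was 0.56 with an adjusted p of 0.0954. Scaling the libraries also ended both calls in liver, with r = 0.42 and rho = 0.40 for the upper quartile (adjusted permutation p = 0.139 and 0.212) and r = 0.52 and rho = 0.54 for the trimmed mean (adjusted permutation p = 0.0926 and 0.0888).

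In duodenum r was 0.50 (permutation p = 0.0335, adjusted p = 0.0607) and did not pass, while rho was 0.61 (adjusted p = 0.0187). The rank call was lost with upper-quartile scaling (rho 0.44, adjusted permutation p = 0.212), with trimmed-mean scaling (0.41, 0.192), as deviations from diet means (0.50, 0.0954) and without the 2 farthest samples (0.51, 0.0873), where r was 0.39 (adjusted permutation p = 0.174). In jejunum r was 0.12 and rho 0.07, with adjusted permutation p of 0.630 and 0.778, and without the 2 farthest samples r was 0.06. In mammary gland r was 0.46 (permutation p = 0.0455, adjusted p = 0.0607) but rho 0.18 (adjusted p = 0.642). The mammary value rested on the samples numbered 1 of rice straw and alfalfa hay, with 25.6 and 27.7 CPM of miR-210 and 2.13 and 3.20 CPM of miR-147. Taken without the 2 farthest samples, r there was -0.40 (adjusted permutation p = 0.174). The differences between tissues in r were not tested.

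The rumen miRNAs that varied most like miR-210, as deviations from diet means over 18 samples and out of 235 other miRNAs with a mean of at least 10 CPM, were miR-378c (r = 0.87), let-7a-3p (0.77), miR-345-5p (0.76), miR-200a (0.73) and miR-505 (0.73). Those that ran opposite were miR-151-3p (-0.78), miR-10b (-0.62) and miR-151-5p (-0.61). For miR-147 the closest were miR-186 (0.82), miR-33a (0.78), miR-301a (0.78), miR-17-3p (0.76) and miR-32 (0.75), and the most opposite were let-7i (-0.61), miR-214 (-0.57) and let-7c (-0.55). miR-33a sits in the gene of the sterol regulator SREBF2, miR-17-3p belongs to the miR-17 to miR-92 cluster, and miR-214 is a miRNA of fibroblasts.

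The highest values were thus different miRNAs for each member, but the r values overlapped. miR-200a, an epithelial miRNA, had r = 0.73 with miR-210 and 0.74 with miR-147, and miR-378c had 0.87 and 0.65. miR-186 separated the members most among those named, with 0.82 for miR-147 and 0.19 for miR-210. The member pair itself, at 0.54, ranked 30 among the 235 for miR-210 and 29 for miR-147. The median r over the 235 was 0.10 with miR-210 and 0.11 with miR-147, and the middle 90% ran from -0.42 to 0.64 and from -0.43 to 0.65. The 18 points share libraries whose CPM sum to the same total, so any r between miRNAs of 1 tissue carries that constraint.

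**Figure D4:**
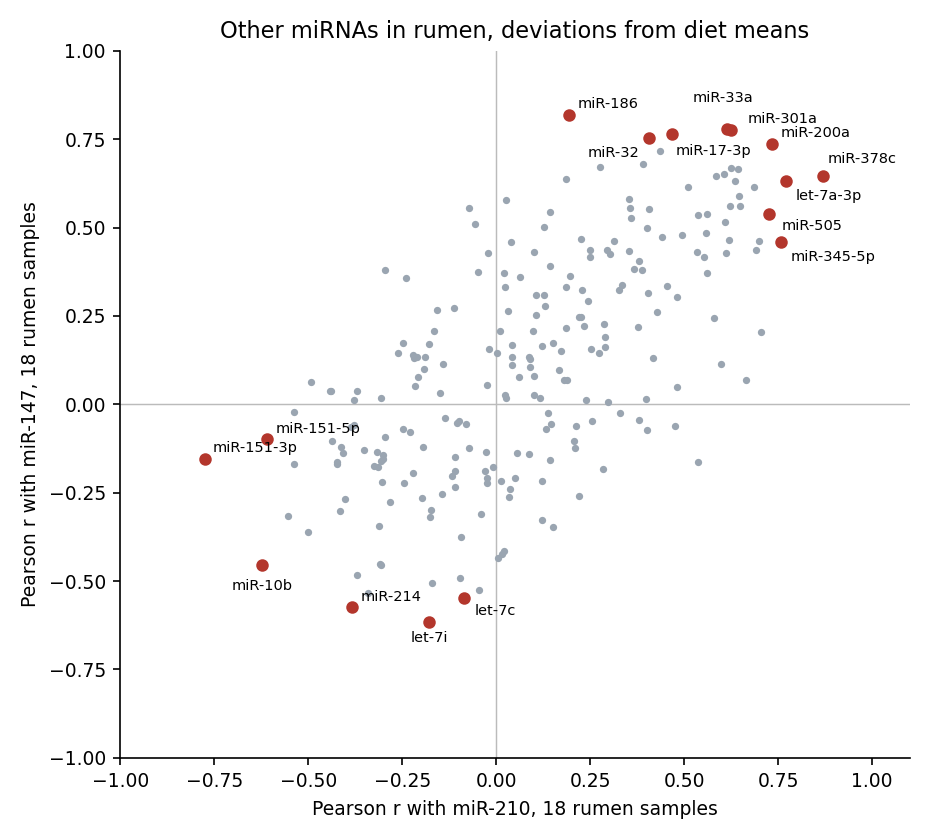
Pearson r with miR-210 on the horizontal axis and with miR-147 on the vertical axis for the 235 other rumen miRNAs of which 18 samples were compared as deviations from diet means, with the highest 5 and the lowest 3 of each member in red and named. miR-200a is high for both (0.73 and 0.74), miR-186 is high for miR-147 alone (0.82 against 0.19), and miR-151-3p is low for miR-210 (-0.78).

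The markers of cell types that a rumen sample can hold moved with the pair to different degrees. With the summed level of the squamous markers miR-205 and miR-31, which ran from 25814 to 54759 CPM over the rumen samples, r was 0.56 for miR-210 and 0.59 for miR-147, as deviations from diet means. Most of that sum was miR-205 (33692 CPM), which had r = 0.61 and 0.65, while miR-31 (4519 CPM) had -0.14 and -0.25. With the 5 general epithelial miRNAs of the miR-200 family, which summed to between 12824 and 35851 CPM, r was 0.37 and 0.70. With the endothelial miR-126 pair, at 16774 to 39440 CPM, r was -0.56 and -0.21, and with the smooth muscle pair miR-143 and miR-145, at 118233 to 243920 CPM, it was -0.27 and -0.26. That sum was almost all miR-143 (r = -0.28 and -0.28), and miR-145 had r = 0.49 and 0.48. The leukocyte list, 5 listed miRNAs that summed to between 2931 and 9560 CPM, gave 0.12 and 0.44. The fibroblast list gave 0.03 and -0.07 and the red blood cell list -0.08 and -0.20. The columnar list gave -0.28 and 0.39 and the striated muscle list -0.11 and 0.24. Of the markers listed for rumen, miR-1 and miR-133b of striated muscle were listed at 0 in their lowest library, and miR-203, miR-206 and the hepatocyte marker miR-122 were not listed. The part of these cell types in the co-variation was not tested.

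In rumen the sums of the hypoxia and inflammation lists were carried by their most abundant miRNAs. The other hypoxia-linked miRNAs summed to a level with r = -0.24 with miR-210 and -0.46 with miR-147. Most of it was miR-27b (103506 CPM, r = -0.44 and 0.04) and miR-26a (102589 CPM, r = -0.17 and -0.51). The sum of the other inflammation-linked miRNAs had r = 0.61 with miR-210 and 0.68 with miR-147, and most of it was miR-21-5p (75982 CPM, r = 0.62 and 0.67). Other members of that list had other values, among them miR-146a (0.27 and 0.15), miR-155 (0.00 and 0.15), miR-146b (-0.30 and -0.15), miR-125b (-0.41 and -0.12) and miR-132 (-0.05 and -0.53). Against diet, where 1.47% of all 340 rumen miRNAs were called, 1 of the 20 hypoxia-linked and 1 of the 11 inflammation-linked miRNAs tested in rumen passed the F test of limma, and it was the same one, miR-155, a miRNA of activated leukocytes that is on both lists. miR-155 was lower under alfalfa hay than under rice straw by -1.18 on the log2 scale (SE 0.26, adjusted p = 0.0225 by limma). Its F test passed at an adjusted p of 0.0437, but passed in only 3 of the 18 fits with 1 sample left out (adjusted p from 1.15e-04 to 0.142) and not with either scaling or edgeR. The difference between alfalfa hay and rice straw lost its call without rice straw sample 4 (adjusted p = 0.0642 by limma) or without alfalfa hay samples 1 (0.0625), 5 (0.0584) or 6 (0.0632), and ran from -1.46 to -1.04.

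Outside rumen, 1 of the 8 tests of the pair against diet passed. In jejunum miR-210 was higher under corn stover than under the other forages. Its samples ran from 34.9 through a median of 53.3 to 74.9 CPM under corn stover, from 24.2 through 36.5 to 44.2 CPM under rice straw and from 24.3 through 33.3 to 36.2 CPM under alfalfa hay. Of the 6 corn stover samples, 5 lay above every rice straw sample and 5 above every alfalfa hay sample. The corn stover samples numbered 1, 2 and 6 had the lowest CPM sums of all libraries, at 999719, 999560 and 999779 CPM. They held 48.5, 74.9 and 68.5 CPM of miR-210, and samples 3, 4 and 5 held 34.9, 51.4 and 55.2 CPM. The joint part of samples 1, 2 and 6 in the diet difference was not tested. The means were 55.6 ± 14.4 CPM under corn stover, 35.9 ± 7.38 CPM under rice straw and 32.5 ± 4.36 CPM under alfalfa hay (SD, n = 6 each).

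The F test of limma over the 3 diets gave miR-210 an adjusted p of 0.0101 in jejunum, where 80 of 337 miRNAs, or 23.7%, were called. Corn stover exceeded rice straw by 0.60 on the log2 scale (SE 0.18, 95% interval 0.22 to 0.98, adjusted p = 0.0182 by limma), a contrast that called 28.8% of the jejunum miRNAs, 31 higher and 66 lower under corn stover. Without the rice straw sample numbered 2, the lowest of its group, the difference was 0.50 and the adjusted p 0.051 by limma. Alfalfa hay lay below corn stover by -0.73 (SE 0.18, interval -1.10 to -0.35, adjusted p = 0.00651 by limma), where 22% were called. Alfalfa hay and rice straw differed by -0.13 (interval -0.50 to 0.25, adjusted p = 0.901), where limma called 0 of 337 (0%), 18 miRNAs had an unadjusted p under 0.05 and edgeR called 1. The median of all miRNAs between corn stover and rice straw was -0.18, and relative to it miR-210 was higher by 0.78, at rank 27 of 337. With scaling by a trimmed mean the median moved to -0.01 and the calls to 63 higher and 35 lower, and edgeR on the recovered reads gave 71 higher and 37 lower. The direction of miR-210 held in these fits, with differences of 0.79 and 0.86.

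miR-147 did not pass in jejunum. Its samples ran from 30.8 through 52.2 to 69.6 CPM under rice straw, from 38.0 through 50.9 to 61.0 CPM under corn stover and from 28.4 through 44.1 to 55.3 CPM under alfalfa hay. The adjusted p of the F test was 0.511 by limma, and the difference between corn stover and rice straw was -0.07 (interval -0.49 to 0.36).

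Among the jejunum miRNAs of the hypoxia list, 4 of 21 passed between corn stover and rice straw, 1 higher and 3 lower under corn stover, beside 28.8% of all 337. miR-210 was the one that was higher, and miR-155, miR-24-3p and miR-26a were lower. The calls of miR-155 and miR-26a were lost with trimmed-mean scaling and with edgeR, and that of miR-155 also without rice straw sample 2 or 4 or corn stover sample 2 or 6 (adjusted p of up to 0.0681 by limma). Of the inflammation list 7 of 11 passed, 2 higher and 5 lower. The split depended on the scaling, since trimmed-mean scaling turned the hypoxia list to 3 higher and 1 lower and the inflammation list to 2 and 2, as edgeR did, beside the 63 higher and 35 lower of all miRNAs. miR-146a, induced by NF-kB, was lower by -0.98 (SE 0.24, adjusted p = 0.00472 by limma), while the passenger arm miR-21-3p was higher by 1.26 (SE 0.18, adjusted p = 3.19e-05 by limma). The median difference was -0.13 over the hypoxia list and -0.33 over the inflammation list, beside -0.18 over all 337. Both lists were chosen with results of these data known.

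Some cell type markers also passed in jejunum between corn stover and rice straw, a contrast that called 97 of all 337 miRNAs, or 28.8%. Both arms of the endothelial miR-126 were lower than under rice straw, by -0.65 and -0.95 on the log2 scale (adjusted p = 0.00951 and 9.09e-04 by limma). Their summed level ran from 8000 to 17708 CPM under corn stover, from 19516 to 29441 CPM under rice straw and from 18498 to 28030 CPM under alfalfa hay. The squamous marker miR-31 was lower by -2.21 (adjusted p = 0.0365 by limma), but the call was lost in 9 of the 18 fits with 1 sample left out (adjusted p of up to 0.0972), with trimmed-mean scaling and with edgeR. Its level ran from 8.13 to 478 CPM under corn stover and from 315 to 476 CPM under rice straw. Of the smooth muscle pair, miR-145 was lower by -0.57 (adjusted p = 0.0149 by limma), a call lost with trimmed-mean scaling and edgeR, while miR-143 stood 0.38 higher (adjusted p = 0.0611) and passed with both scalings and edgeR. Their sum, mostly miR-143, averaged 247938 CPM under corn stover and 191025 CPM under rice straw. Of the striated muscle miRNAs, miR-1 was lower by -1.08 (adjusted p = 2.95e-04 by limma), while miR-133a and miR-133b differed by 0.06 and -0.08 and did not pass, and the list summed to 306 and 300.5 CPM under these diets. Of the 5 leukocyte miRNAs 1 was lower (miR-155). None of the 3 columnar, the 5 general epithelial, the 4 fibroblast and the 3 red blood cell miRNAs passed in this contrast by limma. The sums of the columnar markers overlapped, at 157044 to 305331 CPM under corn stover and 205608 to 276217 CPM under rice straw. Depth also moved with the pair in jejunum, where r with the log2 of the mapped reads was 0.48 for miR-210 and 0.51 for miR-147. The jejunum libraries held 6052826 to 9838915 reads under corn stover, 6462776 to 10383400 under rice straw and 3987988 to 7873252 under alfalfa hay. The part of these cell types and of depth in the miR-210 difference was not tested.

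**Figure D5:**
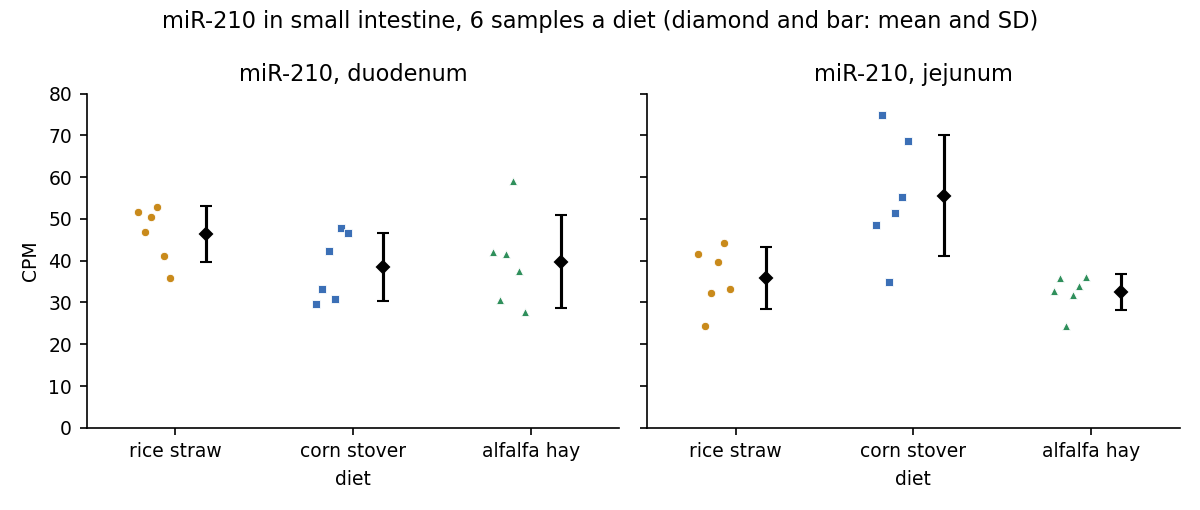
miR-210 in CPM in each duodenum and jejunum sample by diet, with the mean and SD of 6 samples as a diamond and bar. In jejunum 5 of the 6 corn stover samples lie above all samples of the other diets, while in duodenum the 3 diets overlap.

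In duodenum the miR-210 means were 46.5 ± 6.71 CPM under rice straw, 38.4 ± 8.18 CPM under corn stover and 39.8 ± 11.0 CPM under alfalfa hay, and limma gave an adjusted p of 0.678 over the 3 diets. For miR-147 they were 42.7 ± 9.73, 38.2 ± 8.07 and 40.7 ± 8.76 CPM, with an adjusted p of 0.93 by limma. The F test called 0 of 338 duodenum miRNAs (0%), with 37 at an unadjusted p under 0.05, and edgeR also called 0.

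Averaged over diets, the difference between jejunum and duodenum passed the test for neither miRNA. miR-147 was at 48.5 ± 11.7 CPM in jejunum and 40.5 ± 8.56 CPM in duodenum, a difference of 0.24 on the log2 scale (SE 0.11, interval 0.01 to 0.47, unadjusted p = 0.038, adjusted p = 0.115 by limma). miR-210 differed by -0.04 (interval -0.29 to 0.20, adjusted p = 0.806 by limma). In this contrast 27.2% of 331 miRNAs were called. The difference between the segments was then fitted for each diet, a comparison chosen after seeing the jejunum result. For miR-210 jejunum lay above duodenum by 0.51 under corn stover (SE 0.18, adjusted p = 0.0236 by limma, where 36.9% were called), and it differed by -0.38 under rice straw (adjusted p = 0.413, where 1.21% were called) and by -0.26 under alfalfa hay (adjusted p = 0.417, where 9.37% were called). That the difference depended on the diet had an adjusted p of 0.0185 by limma for miR-210 and 0.691 for miR-147, against 20.5% of 331 miRNAs called. The call under corn stover was lost when any 1 of 5 samples was left out, namely corn stover samples 1, 2 and 4 of duodenum and 2 and 6 of jejunum, with differences down to 0.41, while the dependence on diet was kept without any 1 of the 36 samples, with adjusted p up to 0.0498.

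In liver and mammary gland neither miRNA passed. Liver miR-210 stood at 80.2 ± 15.3, 73.7 ± 16.1 and 79.6 ± 18.7 CPM under rice straw, corn stover and alfalfa hay, with an adjusted p of 0.952 by limma. Liver miR-147 stood at 10.2 ± 1.98, 8.51 ± 4.77 and 16.5 ± 18.3 CPM, with an adjusted p of 0.918 by limma. In the last of these groups 5 samples lay between 4.42 and 17.6 CPM and 1 at 52.6 CPM. The F test called 0 of 330 liver miRNAs (0%), with 17 at an unadjusted p under 0.05, and edgeR called 0. Mammary miR-210 stood at 97.6 ± 46.7, 108 ± 5.80 and 74.7 ± 24.8 CPM, with an adjusted p of 0.501 by limma, and mammary miR-147 at 16.9 ± 17.6, 19.8 ± 6.17 and 14.9 ± 6.33 CPM, with an adjusted p of 0.512. In mammary gland 3.66% of 328 miRNAs were called, or 12, a count that was 0 with a pseudocount of 0.1 CPM and ran from 0 to 83 with 1 sample left out. The mammary SD was largest under rice straw, where miR-210 ran from 25.6 to 155 CPM and miR-147 from 1.96 to 39.5 CPM. Over the 18 mammary samples r with the log2 of the mapped reads was 0.36 for miR-210 and 0.78 for miR-147, and the part of depth in these values was not tested. The lowest mammary values of miR-147 rest on 3 or 4 reads, and the 3 reads of the alfalfa hay sample numbered 1 allow 0.66 to 9.35 CPM by the exact binomial interval, which covers counting error only.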

How the data were processed

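The 90 dairy cow samples were used, grouped by the tissue, diet and number in their labels. The authors trimmed the single reads, aligned those over 15 nt to bovine miRNA precursors with sRNAbench, allowing mismatches and several mappings per read, and divided by the reads mapped to annotated miRNAs. The submitters' processing notes name CASAVA 1.8. The deposited values are CPM, although the paper calls them raw counts: they are not whole numbers and their sum was almost the same in every sample. All CPM values in every sample were whole multiples (within 0.01) of the value of 1 read, which gave the mapped reads. No pair of libraries was identical. The fits used these values with no further filter or scaling, and no value was imputed. The rumen correlates were taken among miRNAs with a mean of at least 10 CPM in rumen, and the likeness over tissues among those at 10 CPM or more in at least 1 tissue. The authors' genome build for other annotation is not given in the sources used here.

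Diets within a tissue, jejunum against duodenum and the rumen distance by diet were fitted with limma 3.58.1 (lmFit, eBayes with trend) in R 4.3.3 on log2(CPM + 1), with a pseudocount of 1 CPM, over all listed miRNAs, adjusted by Benjamini-Hochberg and called at 0.05. Fold changes on that scale are understated for low values. Correlations used scipy 1.17.1, numpy 2.4.6 and pandas 2.3.3 in Python 3.11.15. As alternatives, pseudocounts of 0.1 and 5 CPM, upper-quartile (75%) and trimmed-mean scaling, a minimum mean of 10 CPM, edgeR 4.0.16 (quasi-likelihood test) on the recovered reads, a replicate block and leaving out samples or diets were tried. The fits were also run on simulated reads with planted changes. Those reads held no structure by cow or sample number, so the run does not show how the fits behave with it.

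The members and lists were chosen with earlier results of these data known. The miRNAs named are the members, the 5 highest and 3 lowest correlates of each in rumen, the 5 most alike over the 15 means of a tissue and diet, those of the hypoxia, inflammation and marker lists, and miR-122 and other markers. A search for miRNAs with a shared seed was not made, since mature sequences were not used here. Each cow gave all 5 tissues per the study's design, but the labels do not say that equal numbers mark a cow. The main fits therefore made no cow-by-cow comparison, and their p-values treat samples as independent. The replicate block was an alternative only. Within a tissue it used the sample number. For jejunum against duodenum and for the rumen distance it took samples of equal diet and number as the same cow.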

Additional observations from a re-analysis of the deposited data

Results flagged for a closer look

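Among the 30 groups of 6 samples (15 for each miRNA), 3 held a sample far from the other 5 by Dixon's criterion at 95%, which chance alone gives in about 1 group in 20. miR-210 stood at 27.7 CPM in the mammary gland of the alfalfa hay sample numbered 1, against 70.2 to 95.3 CPM in the others. That library was the shallowest of all, with 937556 mapped reads and 26 reads of miR-210. miR-147 stood at 52.6 CPM, or 367 reads, in the liver of the alfalfa hay sample numbered 2, against 4.42 to 17.6 CPM. In the liver of the corn stover sample numbered 1 it stood at 18 CPM, or 53 reads, against 4.93 to 7.94 CPM.

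The difference of miR-210 between jejunum and duodenum depended on the diet (adjusted p = 0.0185 by limma), being 0.51 on the log2 scale under corn stover, -0.38 under rice straw and -0.26 under alfalfa hay.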

How the results depend on the processing

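Of 36 results of the pair, 25 kept their side of the threshold, and their direction where they had one, under every alternative. The rumen r, which had no test, kept its sign throughout but was counted as changed because its size moved. With upper-quartile and trimmed-mean scaling, r of the pair lost its call in liver, at 0.42 and 0.52 (adjusted p = 0.139 and 0.0926 by permutation) against 0.60 (0.0230), as it did at 0.59 as deviations from diet means (0.0632), and it turned to -0.41 and -0.26 in mammary gland. In rumen r was 0.45 with trimmed-mean scaling. Without the 2 farthest samples r was 0.45 in rumen and -0.40 in mammary gland. With 1 sample left out, r ran from 0.45 to 0.73 in rumen, 0.40 to 0.57 in duodenum, 0.00 to 0.32 in jejunum, 0.51 to 0.66 in liver and 0.22 to 0.71 in mammary gland. The duodenum r passed without rice straw samples 5 or 6, and the mammary r without rice straw samples 2, 4 or 5.

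The small rumen differences changed sign without passing. Alfalfa hay minus rice straw was 0.0645 for miR-210 with upper-quartile scaling. Alfalfa hay minus corn stover was 0.11 for miR-210 with both scalings, 0.13 with edgeR, 0.0882 without alfalfa hay sample 6 and 0.0582 without corn stover sample 1, and for miR-147 it was 0.0661 with both scalings and 0.0839 with edgeR. With 1 sample left out it ran from -0.143 to 0.0882 for miR-210. Jejunum minus duodenum for miR-210 was 0.12 without rice straw and 0.0644 without alfalfa hay. For miR-147 under alfalfa hay it was -0.0450 with upper-quartile scaling and ran from -0.00754 to 0.18 with 1 sample left out, and for miR-210 under corn stover from 0.41 to 0.63. The miR-210 difference in jejunum between corn stover and rice straw ran from 0.50 to 0.72 with 1 sample left out and up to 0.86 with edgeR. The cause of these changes was not tested.

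The replicate block changed no call of the pair: miR-210 in jejunum had an adjusted p of 0.0145 by limma with it. It lowered r in rumen to 0.30. Whether the numbers pair the samples was checked: deviations of equal numbers correlated by a mean of -0.05 to 0.16 between diets of a tissue and by up to 0.20 between tissues (duodenum and jejunum), and in no comparison were all pairs above 0.1. The number of pairs above 0.1 was highest between duodenum and jejunum (14 of 18, with 8 of 18 samples correlating best with their own number) and was 11 of 18 between rumen diets (8 of 18). By that criterion the numbers were not used to pair samples in the main fits. The criterion asks every pair to pass, so missing it does not show that the numbers carry no pairing. The labels do not say what they stand for. Counts of calls moved most in mammary gland (F test 12, but 0 with a pseudocount of 0.1, 20 with edgeR and 54 with the block, and 0 to 83 with 1 sample left out, and between corn stover and rice straw 82, but 41 and 38 with upper-quartile and trimmed-mean scaling, 50 with edgeR, 106 with the block and 18 to 121 with 1 sample left out), in the rumen F test (5, but 2 to 8, and 0 to 27 with 1 sample left out), between alfalfa hay and rice straw in rumen (9, but up to 21, and 0 to 43) and alfalfa hay and corn stover in rumen (0, but up to 3, and up to 29). The count was 45 without corn stover and 49 without alfalfa hay for jejunum minus duodenum (90), 2 to 8 under rice straw (4) and 54 with the block under alfalfa hay (31), and 21 with upper-quartile scaling for the rumen distance (13). The precision of low values is limited by depth in mammary gland.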
